A study of Mus musculus with 13 samples.

Results

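Pools of cells sorted for Ret-EGFP fluorescence from mouse dorsal root ganglia (DRGs) at the lumbar levels L3, L4 and L5 were profiled by bulk RNA sequencing, and their transcript abundances were ranked gene by gene within each library. These 6 libraries were chosen by their sample titles out of 13 in the series. They comprise 3 pools from females and 3 from males, each lettered A, B and C. All animals were C57BL/6 mice 3 months old and no treatment is named in the labels. The labels give the genotype as Tg(Ret-EGFP)SJ, while the series' design text describes heterozygotes with enhanced green fluorescent protein (EGFP) placed in the Ret locus. Every pool holds the ganglia of several mice: 7, 4 and 3 mice for the female pools A, B and C, and 5, 4 and 2 mice for the male pools. In all, 25 mice were pooled, with 12 to 42 ganglia in a library. The number of sorted cells is not given in the labels. No library of EGFP-negative cells was used here, so abundance in the pool does not show enrichment by the sort. No contrast between the sexes or with other spinal levels was made. Because each library is a pool, fewer cells of a type and less RNA per cell cannot be told apart.

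Ret is the receptor tyrosine kinase for ligands of the GDNF family (named after a growth factor made by a glial cell line), which act together with co-receptors of the GFRalpha family that bind the ligand. In adult DRGs, Ret marks most nonpeptidergic nociceptors, which detect painful stimuli with thin unmyelinated fibres, the C low-threshold mechanoreceptors that respond to gentle touch, and a share of the large myelinated A-fibre mechanoreceptors. Peptidergic nociceptors release calcitonin gene-related peptide (CGRP) and substance P, and markers overlap between types.

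The files hold counts for 41388 genes, and total counts ran from 13030096 in male pool A to 23827169 in female pool C. At these depths 3 counts correspond to 0.126 to 0.23 CPM, that is counts scaled to a common library total. Abundance is given mainly as RPKM, the same value divided by the gene's length in kilobases, because only a value per length can be compared between genes, and CPM is used for the share of reads a gene takes. A gene at 1 RPKM or more was counted as detected, which held for 11030 to 11385 genes per library, for 9950 genes in all 6 and for 12515 in at least 1. No counts in any library were seen for 16606 genes. Among the 9950, the median level was 8.08 RPKM. Where 6 values stand in a row, they are given in the order female A, B and C, then male A, B and C.

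The 2 libraries lettered A stood apart from the other 4 and are marked in every result that rests on them. They are the largest pools of their sex, with 7 and 5 mice. The Spearman correlation of RPKM ranks over the 12515 genes was 0.980 to 0.988 in the 6 pairs of B and C libraries, 0.964 between both A libraries and 0.930 to 0.957 in the 8 pairs of an A with a B or C library. The A libraries also differed from the rest by base composition. Among genes with a median of at least 5 RPKM, those under 40% GC lay 0.36 higher in female A and 0.27 higher in male A than each gene's median over the 6 libraries, on the log2(RPKM + 0.1) scale. Genes over 60% GC lay at -0.56 in female A and -0.46 in male A. In the other 4 libraries the same 2 classes stayed between -0.14 and 0.20. Genes up to 1 kb long lay 0.37 higher in female A and between -0.03 and 0.00 in the other 5. Letters were not described as batches in the labels, and the part of base composition, length, pool size or handling in the levels of the A libraries was not tested. Counts of each pair of libraries differed by more than sampling noise, so no library was a copy of another.

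**Figure D1:**
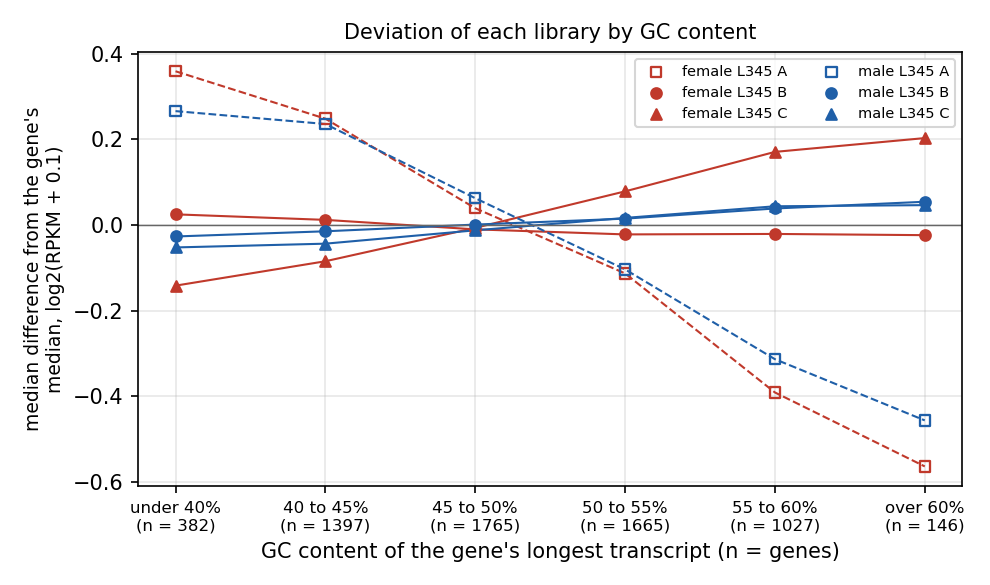
Median difference of each library from the gene's median over the 6 libraries (y axis, log2(RPKM + 0.1)) in 6 classes of GC content of the longest transcript (x axis, with the number of genes). Open squares and dashed lines are the A libraries, which run from 0.36 and 0.27 under 40% GC to -0.56 and -0.46 over 60% GC; filled symbols are the other 4 libraries.

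The highest protein-coding transcripts were those of neuronal cytoskeleton and of a few proteins typical of small sensory neurons. Sncg, which encodes gamma-synuclein, a small protein abundant in peripheral sensory neurons (chromosome 14, 34370274 to 34374789 on GRCm38), was measured at 7867, 6237 and 6870.2 RPKM in the female pools A, B and C and 6416, 6286 and 6667 RPKM in the male pools A, B and C. It held rank 1 or 2 in every library. Fxyd2, a regulatory subunit of the sodium pump known from nonpeptidergic nociceptors (chromosome 9, 45403138 to 45410278), followed at 6853, 4947, 5744, 6901, 5574 and 6213 RPKM, and ranked 1 to 3. By RPKM, Sncg was above Fxyd2 in 5 of 6 libraries and below it in male A. The rank of Fxyd2 rested on a listed length of 632 bases, against 1694 in its longest transcript. Its median rank was 15 with that longest transcript length and 21.5 by CPM. Calca, the gene of CGRP and calcitonin (chromosome 7, 114631480 to 114636357), reached 6062, 4087, 4000.0, 3550.1, 3916 and 3414 RPKM and ranked 4 to 6. Its level in female A lay well above those of the other 5, which overlapped within 3414 to 4087 RPKM.

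After these came transcripts of the cytoskeleton, iron storage and calcium handling. Tmsb4x, which encodes the actin-sequestering thymosin beta 4, was at 3074 to 4634 RPKM. Tuba1a, an alpha-tubulin, was at 2997 to 3919 RPKM, Fth1, the ferritin heavy chain, at 2522 to 3168 RPKM and Actb, beta-actin, at 1471 to 3149.7 RPKM. Neuronal beta-tubulin Tubb3 stood at 1598 to 2583 RPKM, the microtubule regulator Stmn2 at 1902 to 2383 RPKM, and Dpysl2, a collapsin response mediator protein of growing axons, at 1478 to 2132 RPKM. The calcium-binding proteins Anxa5, S100a6 and Calm2 ranked 10 to 15, 11 to 18 and 15 to 26. Skp1a, a subunit of ubiquitin ligases, Selenow, a selenoprotein, Rgs4, a regulator of G protein signalling, the chaperone Hsp90ab1, the tubulin-binding Tppp3 and the tetraspanin Cd9 completed the protein-coding nuclear genes among the 25 highest, each at a median of 1488 RPKM or more.

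The remaining members of the top 25 were not messenger RNAs of nuclear genes. Gm42418, an annotated long noncoding RNA of 1 exon (chromosome 17, 39846958 to 39848788), was the most abundant gene by median and had the largest SD of log2(RPKM + 0.1) among the 25, 1.33: 1510.2, 8924 and 10499.6 RPKM in the female pools A, B and C and 2038, 10013 and 11855 RPKM in the male pools A, B and C. Both A libraries lay far below the other 4, which did not overlap with them. Of its words of 50 bases, 94.9% are also in the transcript of CT010467.1, an rRNA gene, with both strands searched. Since strand handling is not given, reads of the 2 genes cannot be separated over these words. Mir6236, a microRNA gene of 123 bases (chromosome 9, 110281287 to 110281409), was at 2741, 3993, 4452, 2164, 3996 and 3659 RPKM and ranked 4 to 13, but 266 to 548 CPM placed it only at a median rank of 309 by CPM. The library preparation does not target small RNAs, and the values count reads over the hairpin's whole interval. The mature sequence from RefSeq (GRCm38.p6, chr9:110281353-110281371, plus strand) is printed because this is the gene whose rank depended most on the division by length among the 25, and its seed, bases 2 to 8, is in capitals.

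mmu-miR-6236: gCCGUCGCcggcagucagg

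**Figure D2:**
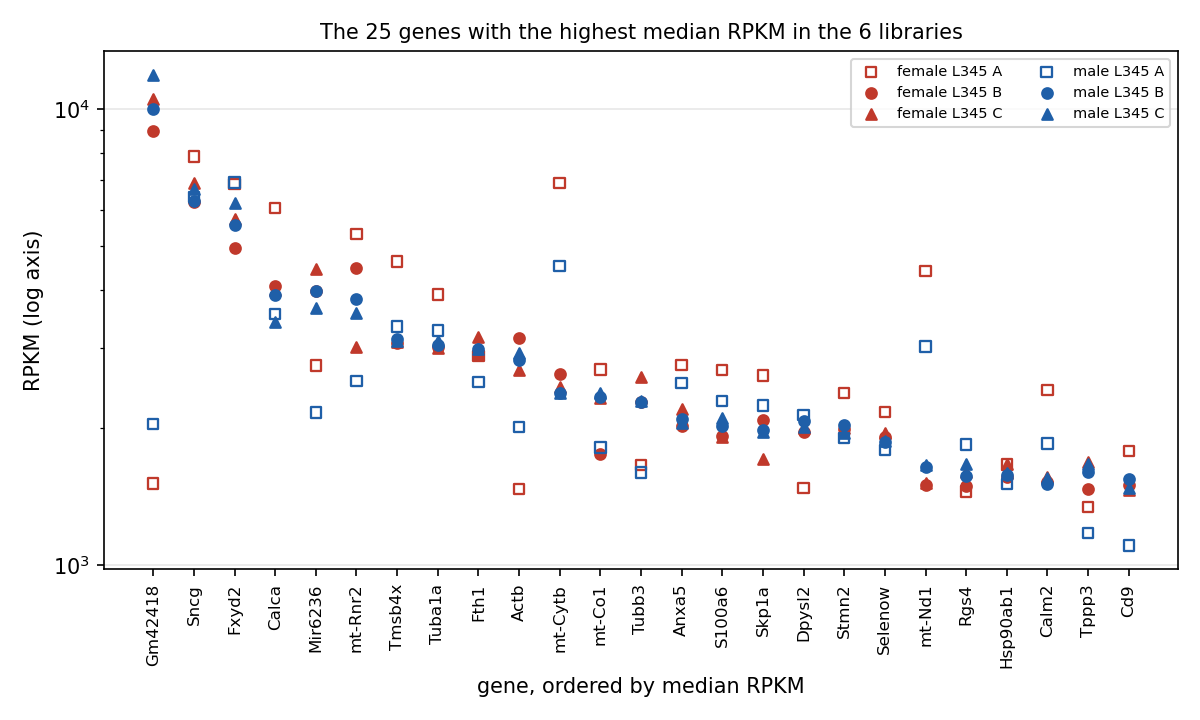
RPKM (log axis) of the 25 genes with the highest median, 1 symbol per library. Open squares are the A libraries. Gm42418 spans 1510 to 11855 RPKM with both A libraries lowest, whereas Hsp90ab1 spans 1508 to 1665 RPKM.

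Mitochondrially encoded genes took 1.44 to 3.01% of counts, highest in female A, and 1.44 to 1.67% in the 4 libraries without A. The 16S ribosomal RNA mt-Rnr2 was at 5317, 4474, 3016, 2532, 3836 and 3567 RPKM. Cytochrome b, mt-Cytb, was at 6876, 2628, 2459, 4526, 2382 and 2380.4 RPKM, and the complex I subunit mt-Nd1 at 4409, 1501, 1517, 3013, 1641 and 1659 RPKM, in both cases with female A highest and male A next. The complex IV subunit mt-Co1 did not share this pattern and was at 2684, 1757, 2328, 1811, 2335 and 2381 RPKM. Of the words of mt-Co1, 51.1% are also in other genes, against 0% for mt-Cytb and mt-Nd1. Sharing and pattern did not go together in every gene. For mt-Nd4, another complex I subunit, 62.2% of words are also in other genes. It had female A highest and male A next, at 1348, 447, 337, 804, 328 and 315 RPKM. For mt-Rnr2, which was lowest in male A, the share of words in other genes was 1.04%. For mt-Co2, mt-Co3 and mt-Atp6 that share was 100%, 99.9% and 99.5%, so reads of such genes may be split among copies. The part of this sharing in the mitochondrial share of counts and in these levels was not tested. Of 94 nuclear genes of oxidative phosphorylation, 86 were detected in all 6 libraries and 43 were at 100 RPKM or more in all 6. Their median level was 96.6 to 104 RPKM in 5 libraries and 130 RPKM in female A. By RPKM Ndufa4, a small respiratory chain subunit, led at 1295 to 2366 RPKM. It was followed by Cox6a1 at 718 to 1077 RPKM, Cox6b1 at 622 to 1079 RPKM and Atp5mpl at 602 to 1327 RPKM. The place of Ndufa4 rested on a listed length of 492 bases, against 1232 in its longest transcript. For Cox6a1 these lengths were 702 and 620 bases.

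By read share, the library was spread over many genes. The 530 to 577 most abundant genes held 50% of the counts and 4448 to 4684 held 90%. The 10 highest held 6.32 to 8.34%. Nuclear protein-coding genes held 94.8 to 96.5%, long intergenic noncoding RNAs 1.05 to 2.93% and annotated pseudogenes 0.137 to 0.177%. Ranking by CPM favoured long transcripts. Map1b, a microtubule-associated protein of axons with 11852 bases in the file, had median rank 3 by CPM at 4594 to 10327 CPM but ranked only 43 to 143 by RPKM. Prune2 with 12512 bases had median rank 7 at 3523 to 6941 CPM and ranked 74 to 211 by RPKM. The lists of the 100 highest genes by RPKM and by CPM shared 65 genes. Median gene length was 1676.5 bases in the first, 3165.5 in the second and 3606.5 among the genes detected in all 6 libraries.

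Markers of sensory neurons as a class were high. The pan-sensory list of 15 genes had a median level of 270.5 to 359 RPKM and took 2.86 to 3.25% of counts, and 14 members were at 10 RPKM or more in all 6 libraries. The type III intermediate filament Prph was at 536 to 732 RPKM, the deubiquitinase Uchl1 (PGP9.5) at 763 to 1081 RPKM and the synaptic protein Snap25 at 270.5 to 442 RPKM. Thy1, a surface glycoprotein of many neurons, was the lowest at 7.57 to 14.6 RPKM. Of the 15, 6 were among the 100 highest genes by median. The order of the neuron type lists by median RPKM was the same at the top in every library: pan-sensory in place 1, nonpeptidergic in place 2 and peptidergic in place 3. A-fibre mechanoreceptors were in place 7 of 9 in all 6 libraries, and the cold-sensing and proprioceptor lists took the last 2 places in each. The 3 lists between, of the Mrgpra3, Nppb and C low-threshold types, exchanged places 4 to 6.

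**Figure D3:**
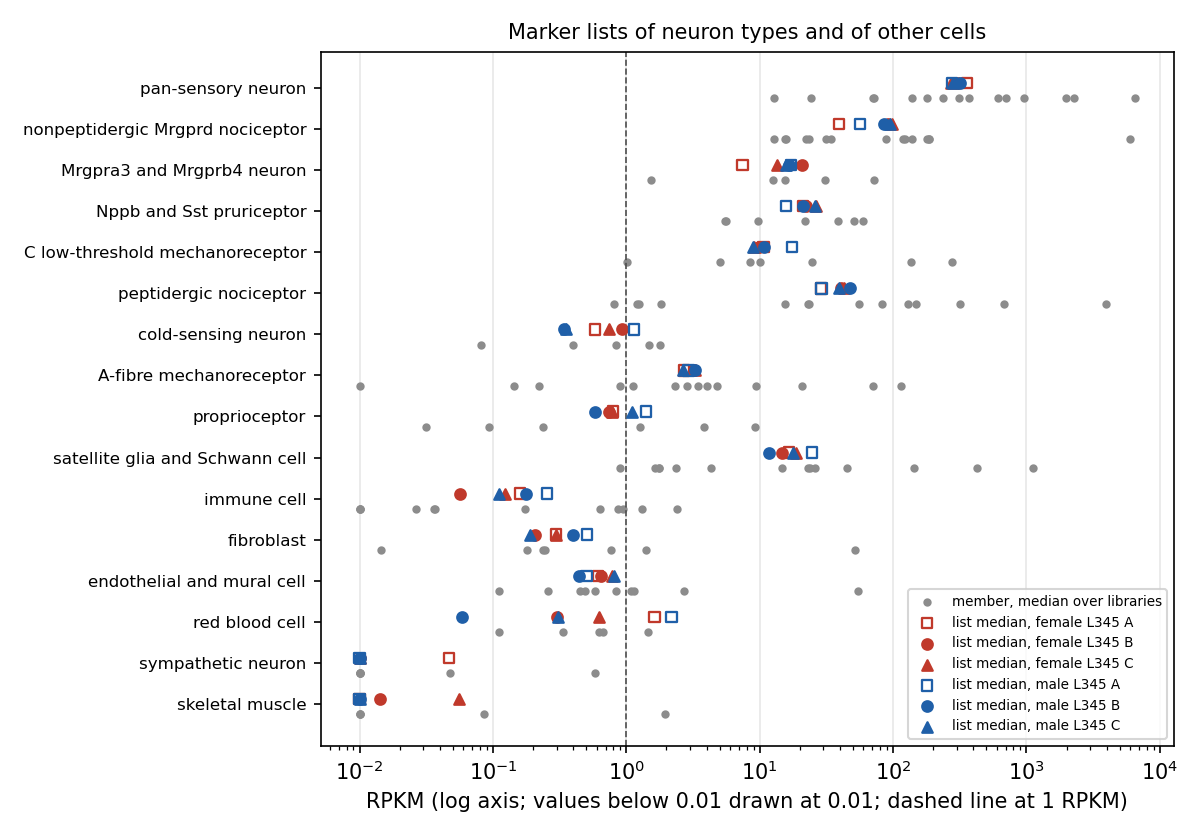
Marker lists of 9 neuron types and 7 other cell types. Grey points are members (median RPKM over 6 libraries, log axis), and coloured symbols are the list's median in each library. Pan-sensory medians lie at 270.5 to 359 RPKM, and those of sympathetic neurons and skeletal muscle at 0 to 0.0559 RPKM.

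All 15 markers of nonpeptidergic Mrgprd nociceptors were detected in all 6 libraries, 12 of them at 10 RPKM or more, and the list's median was 85.3 to 97.8 RPKM in the 4 libraries without A, 39.2 RPKM in female A and 56.8 RPKM in male A. Mrgprd, the Mas-related receptor that names the type, was at 98.2, 173 and 185 RPKM in the female pools A, B and C and 158, 195 and 203 RPKM in the male pools A, B and C. Female A was the lowest, and the 4 B and C libraries were the highest. The ATP-gated channel P2rx3 was at 39.2, 92.4, 97.8, 56.8, 85.3 and 95.5 RPKM, with both A libraries below the other 4. P2rx3 was the middle member in every library, so these values are the list's median and not a second observation. The kainate receptor subunit Grik1 stood at 119 to 196 RPKM, the complement regulator Cd55 at 175 to 224 RPKM and Acpp, an acid phosphatase of these neurons, at 102 to 179.5 RPKM. The lysophosphatidic acid receptor Lpar5 was the lowest member by median and ranged from 2.04 RPKM in female A to 14.3 RPKM in male C.

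Peptidergic markers were not low in the pool. Of the 14, 10 were detected in all 6 libraries and 9 were at 10 RPKM or more in all 6. By RPKM, Calca exceeded Fxyd2 in none of the 6 libraries. By CPM the order was reversed in all 6, with Calca at 5053 to 8971 CPM and Fxyd2 at 3127 to 4361 CPM. Tac1, the precursor of substance P, was at 1155, 696, 669, 529, 710.4 and 572 RPKM, and Gal, the precursor of galanin, at 567, 311, 327, 259, 343 and 268 RPKM. Female A was the highest library for Calca, Tac1, Gal and Adcyap1, the PACAP precursor, and male A or male C the lowest. The ratio of Tac1 to Gal stayed at 2.04 to 2.24 in all 6. The heat- and capsaicin-gated channel Trpv1 was at 147, 164, 158, 123, 152 and 134 RPKM. The vasopressin receptor Avpr1a was at 0.798 to 3.01 RPKM, the kappa opioid receptor Oprk1 at 0.848 to 2.53 RPKM and the prokineticin receptor Prokr2 at 0.543 to 0.986 RPKM.

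Markers of itch neurons and of gentle touch were present at intermediate levels. In the list for Nppb and Sst pruriceptors all 7 members were detected in every library, with medians of 15.7 to 26.4 RPKM. The natriuretic peptide precursor Nppb was at 97.6, 44.6, 69.4, 23, 49.9 and 85.3 RPKM and the somatostatin precursor Sst at 71.4, 31.4, 58.2, 17.9, 34.8 and 42.1 RPKM. For both peptides female A was the highest, male A the lowest, and Nppb exceeded Sst in all 6 by 1.19 to 2.03-fold. The interleukin 31 receptor Il31ra was at 15.7 to 26.4 RPKM. The list's median, which is the value of a single member in each library, had the same range. Mrgpra3, an itch receptor of a separate type, was at 28.8, 79.6, 80.2, 98.4, 58.7 and 63.9 RPKM, again lowest in female A. Th, tyrosine hydroxylase and the classical marker of C low-threshold mechanoreceptors, was at 262, 223, 298, 306, 288 and 269 RPKM and ranked 166 to 237. Its lowest value was that of female B and its highest that of male A, with female A between. Fam19a4 (TAFA4), a secreted protein of the same type, was higher in both A libraries, at 226, 121, 129, 219, 145 and 118 RPKM. The vesicular glutamate transporter Slc17a8 was much lower, at 4.2 to 9.71 RPKM, and Th exceeded it by 27.0 to 64.0-fold.

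Lists of large myelinated and cold-sensing neurons had low medians, though not every A-fibre marker was low. The median of the 14 A-fibre markers was 2.64 to 3.27 RPKM. Of these markers, 9 were detected in all 6 libraries and 3 were below 1 RPKM in all 6. Another 3, among them Nefh and Nefm, were at 10 RPKM or more in all 6. The neurofilament heavy chain Nefh was at 12.2, 20.6, 21.4, 20.8, 17.4 and 22.8 RPKM, and the medium chain Nefm at 55.6, 135, 122, 77.5, 114 and 117 RPKM. The light chain Nefl, which is not confined to myelinated neurons, was far higher at 768, 904, 952, 981, 922 and 944 RPKM. Nefl exceeded Nefm by 6.69 to 13.8-fold and Nefm exceeded Nefh by 3.73 to 6.56-fold. Of the words of Nefl, 31.8% are also in Nefm, and 18.5% of those of Nefm are in Nefl. The part of this sharing in the ratio of Nefl to Nefm was not tested. The transcription factor Mafa had no counts in any library, which allows at most 3 counts, or 0.23 CPM, in the library of lowest depth. Pvalb, the parvalbumin of proprioceptors, was at 1.25, 1.28, 1.21, 2.65, 0.91 and 2 RPKM, and Runx3, their transcription factor, at 0 to 0.0852 RPKM. The cold and menthol channel Trpm8 was at 0.585, 1.2, 1.51, 1.91, 1.46 and 2.48 RPKM.

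Among receptors of the GDNF family, Ret itself (chromosome 6, 118151748 to 118197744, 7341 bases in the file) was steady at 27.8, 29 and 28.8 RPKM in the female pools A, B and C and 29.1, 27.1 and 28 RPKM in the male pools A, B and C. Its SD on the log2(RPKM + 0.1) scale was 0.0401, against a median of 0.217 for genes between 10 and 100 RPKM. It ranked 1982 to 2118 by RPKM, and its median rank by CPM was 903.5. The co-receptors were more variable. Gfra3, the artemin receptor, was at 113, 132, 139.7, 90.4, 142 and 127 RPKM, Gfra2, the neurturin receptor, at 62.3, 90, 96, 82.8, 101 and 93.9 RPKM and Gfra1, the GDNF receptor, at 4.41, 14.4, 15, 11.1, 13.8 and 17.4 RPKM. The order Gfra3, Gfra2, Ret, Gfra1 held in all 6 libraries. Gfra1 was lowest in female A. Gfra4 was at 2.3 to 3.63 RPKM, and Gfral had no counts. Of the neurotrophin receptors, Ngfr (p75) was at 18.5, 70.9, 82.1, 26, 70.9 and 58.7 RPKM, above Ntrk2 at 3.11 to 4.3 RPKM and Ntrk3 at 2.01 to 4.77 RPKM in all 6 libraries.

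Neuropeptide genes formed a steep series. Of 20, 11 were detected in all 6 libraries and 5 were at 100 RPKM or more in all 6. Calcb, which encodes the beta form of CGRP, was at 764, 693, 834, 703, 691 and 843 RPKM, below Calca in all 6 by 4.05 to 7.94-fold. The 2 genes shared under 1% of their words, 0.715% of those of Calca. Nmb, neuromedin B, was at 166 to 244 RPKM and Cartpt at 46.6 to 76.5 RPKM. Grp, the gastrin-releasing peptide, had no counts, and Npy was at 0.0741 to 2.98 RPKM.

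Levels of ion channel genes were unequal within each family. Of 14 sodium channel genes, 11 were detected in all 6. Scn11a (Nav1.9) was at 54.5, 132, 122, 109, 123 and 137 RPKM and Scn10a (Nav1.8) at 44.7, 109, 107, 66.1, 102 and 108 RPKM, and Scn11a was higher in all 6. Scn9a (Nav1.7) was at 63.1, 49.9, 35.2, 65.2, 37.6 and 33.6 RPKM, highest in both A libraries, and exceeded Scn10a in female A alone. Scn4a, the channel of skeletal muscle, was below 1 RPKM in every library. Among 20 TRP, ASIC and Piezo channels, 15 were detected in all 6, and Trpv1, Trpa1 at 35.5 to 52.7 RPKM, Trpv2 at 25.2 to 45.1 RPKM and Piezo2 at 15.8 to 22.3 RPKM were the highest. Piezo1 was at 0.0164 to 0.0649 RPKM. Of 25 potassium and HCN channel genes, the channel-interacting protein Kcnip4 was the highest at 138 to 212 RPKM, and the A-type channel Kcnd1 followed at 32.4 to 69.3 RPKM. Of 12 purinergic receptors, 4 were detected in all 6, led by P2rx3.

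Transcription factors of sensory neurons were read at moderate levels. Of 25, 16 were detected in all 6 and 1, Pou4f1 (Brn3a), was at 100 RPKM or more in all 6, at 178, 182, 169, 225, 191 and 177 RPKM. Isl1 was at 65.1 to 86.8 RPKM, Klf7 at 71.8 to 94.5 RPKM, and Isl2 at 50.1 to 69 RPKM. Of the words of Klf7, 38.2% lie in the overlapping Gm26649. Runx1, a factor of the nonpeptidergic and C low-threshold lineages, was at 9.99 to 14.6 RPKM. Among 39 Hox genes, 12 were detected in all 6 and 3 were at 10 RPKM or more in all 6. They were Hoxa10 at 16.4 to 20 RPKM, Hoxb5 at 11.3 to 14.9 RPKM and Hoxa7 at 10.9 to 12.8 RPKM.

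Synaptic vesicle and cytoskeletal families were broadly detected. Of 22 synaptic vesicle genes, 20 were detected in all 6. The synaptotagmins Syt4 at 397 to 499 RPKM and Syt11 at 354 to 397 RPKM were the highest by median, followed by Snap25, which exceeded Syt11 in both A libraries. The vesicular glutamate transporter Slc17a6 (VGLUT2) was at 67.6 to 109 RPKM, and Slc17a7 (VGLUT1) at 0.0369 to 0.366 RPKM. Of 13 tubulins, 12 were detected in all 6 and 7 were at 100 RPKM or more in all 6. Tubb5 was at 604 to 833 RPKM, Tubb4a at 506 to 685 RPKM and Tubb2a at 405 to 509 RPKM. For the alpha-tubulins Tuba1a and Tuba1b, 75.5% and 75.1% of words are shared with other genes, so their counts may be split among copies.

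The 16 glycolytic enzymes were all detected in all 6 libraries but were very unequal. Copies of the coding sequence were looked for in the 3 lowest alone, so the higher enzymes give no comparison. Aldoa was at 1357, 1362, 1586, 1292, 1459 and 1479 RPKM, Pkm at 306 to 423 RPKM and Ldha at 242 to 293 RPKM, while Gapdh was at 5.37, 15.3, 7.69, 4.67, 9.7 and 7.65 RPKM, Pgk1 at 6.96 to 8.94 RPKM and Pgam1 at 3.13 to 4.31 RPKM. Aldoa exceeded Gapdh by 89.2 to 277-fold. The coding sequence of Gapdh (chromosome 6) has an unbroken run of 1017 of 1077 bases identical to the processed pseudogene Gm7336 on chromosome 7. That of Pgk1 (chromosome X) has 1250 of 1251 bases in Pgk1-rs7 on chromosome 12, and that of Pgam1 (chromosome 19) all 762 in Pgam1-ps2 on chromosome 7. Gm7336 had 0 to 4 counts per library, Pgk1-rs7 1 to 4 and Pgam1-ps2 0 to 3, so few counts were given to these copies. Other copies were not examined in this way. The share of words also in other genes was 25.1% for Gapdh, 53.9% for Pgk1 and 36.2% for Pgam1. It was 25.8% for Pkm, which was far higher than these 3. Eno1, with 26% of its words shared, was at 42.6 to 69.4 RPKM, and Tpi1 at 81.6 to 109 RPKM. How reads that map to more than 1 place were counted is not given in the sources used here, and its part in these low values was not tested. The first 60 bases of the identical run are shown for 2 of the pairs, from the GENCODE M21 transcripts, because they are what gene and copy have in common. Both are coding sequence, and capitals mark the first in-frame ATG of the stretch shown.

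Gapdh and Gm7336, coding bases 61 to 120 of Gapdh-202: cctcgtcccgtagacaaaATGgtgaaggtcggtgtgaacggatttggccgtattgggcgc
Pgam1 and Pgam1-ps2, coding bases 1 to 60 of Pgam1-201: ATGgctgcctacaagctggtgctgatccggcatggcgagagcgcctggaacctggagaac

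Cytosolic ribosomal protein genes, whose products join in 1 particle, were also uneven. They took 0.517 to 0.667% of counts, highest in female A. Of 85, 72 were detected in all 6, 10 were at 100 RPKM or more in all 6, and 7 were below 1 RPKM in all 6. Rpl4 was at 462, 351, 369, 356, 351 and 332 RPKM, whereas Rps6 was at 0.376 to 0.741 RPKM. The 17 genes with under 10% of words in other genes had a median of 30.0 RPKM, the 60 with 10 to 50% a median of 12.5 RPKM and the 8 with over 50% a median of 5.87 RPKM. Each class spanned low and high genes, for example Rplp1 at 253 to 328 RPKM in the last. The first class includes Rpl10l, Rpl3l and Rpl39l, paralogs with medians of 0.

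**Figure D4:**
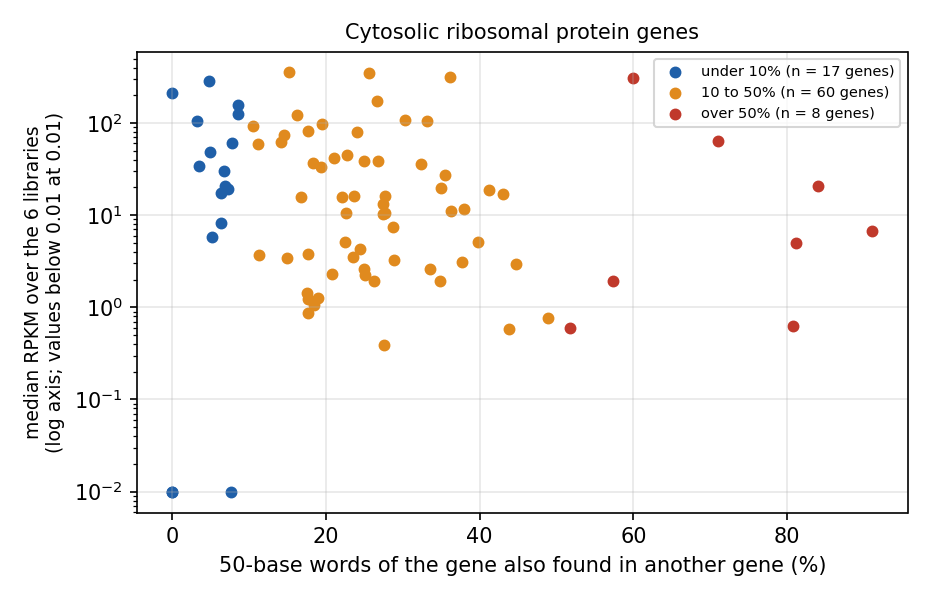
Median RPKM over the 6 libraries (log axis) of 85 ribosomal protein genes against the percent of their 50-base words found in another annotated gene. Rpl4, the highest at a median of 354 RPKM, shares 15.2% of its words, and genes below 10 RPKM occur in all 3 classes (5 of 17, 25 of 60 and 5 of 8).

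Of the lists for other cells, that for satellite glia and Schwann cells was the most fully detected. Of its 14 members, 13 were detected in all 6 and 8 were at 10 RPKM or more in all 6, and the list summed to 1741 to 2116 RPKM with a median of 11.7 to 24.8 RPKM, the top in male A. Most of the sum was Pmp22, a myelin protein, at 1044 to 1365 RPKM. Apoe, apolipoprotein E, was at 180.1, 452, 581, 315, 453 and 399.7 RPKM, lowest in female A, and Fabp7, a satellite glia fatty acid carrier, at 211, 126, 144, 213, 142 and 94.7 RPKM. Defining glial genes were much lower: Sox10 was at 1.43 to 2.23 RPKM and Erbb3 at 1.38 to 2.07 RPKM. The part of glial RNA in other levels was not tested. Of 12 immune markers, 7 were below 1 RPKM in all 6, and the sum of the list was 4.82 to 12.7 RPKM. Among fibroblast markers only Dcn, a proteoglycan, was at 10 RPKM or more, at 32.6 to 102 RPKM, and among endothelial and mural markers only Rgs5, at 50.8 to 97.9 RPKM. The collagen Col1a1 was at 0.0604 to 0.409 RPKM, the endothelial adhesion molecule Pecam1 at 0.579 to 1.42 RPKM and smooth muscle actin Acta2 at 0.133 to 1.12 RPKM. Globin and other red blood cell genes summed to 0.425 to 13.1 RPKM, highest in both A libraries. The sympathetic neuron marker Slc6a2 and the muscle marker Myh4 had no counts. Xist was at 2.36 to 5.11 RPKM in the female libraries and at most 0.0304 RPKM in the male ones, and Ddx3y at 10.6 to 17.4 RPKM in the male and at most 0.0835 RPKM in the female ones, as the labels give.

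Activity and injury genes were present. All 14 immediate early genes were detected in all 6, which can also respond to tissue dissociation. Fos was at 94.9, 96.2, 140.3, 90.6, 67.8 and 136 RPKM, Jun at 17.5 to 42.9 RPKM and the stress factor Atf3 at 22.2 to 53.9 RPKM. Fos was highest in both C libraries, and male B was the lowest. Of the 14 injury and regeneration genes, 10 were detected in all 6, led by Gal and the growth-associated protein Gap43 at 205 to 359 RPKM, while Sprr1a was at 0.952 to 3.2 RPKM and Ecel1 at 0.062 to 0.252 RPKM.

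How many of the highest genes were shared between libraries depended on the scale. Of the 10 highest genes by RPKM, 7 were shared by all 6 libraries and 10 by the 4 without A, whereas of the 10 highest by CPM 2 were shared by all 6. Fewer libraries cannot share fewer genes, so the count for the 4 is at least that for the 6 by construction. For the 100 highest by RPKM the numbers were 78 and 90, and for the 1000 highest 816 and 933. By CPM, all 6 shared 78 of the 100 highest and 772 of the 1000 highest. The median SD on the log2(RPKM + 0.1) scale was 0.29 for genes at 1 to 10 RPKM, 0.22 at 10 to 100, 0.20 at 100 to 1000 and 0.20 from 1000 RPKM up. Over the 4 libraries it was 0.16, 0.10, 0.07 and 0.07. The median span of ranks over 6 libraries was 1634 places in the first class and 8 in the last. Counting error alone would give 0.09 in the first class and 0.01 in the last.

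**Figure D5:**
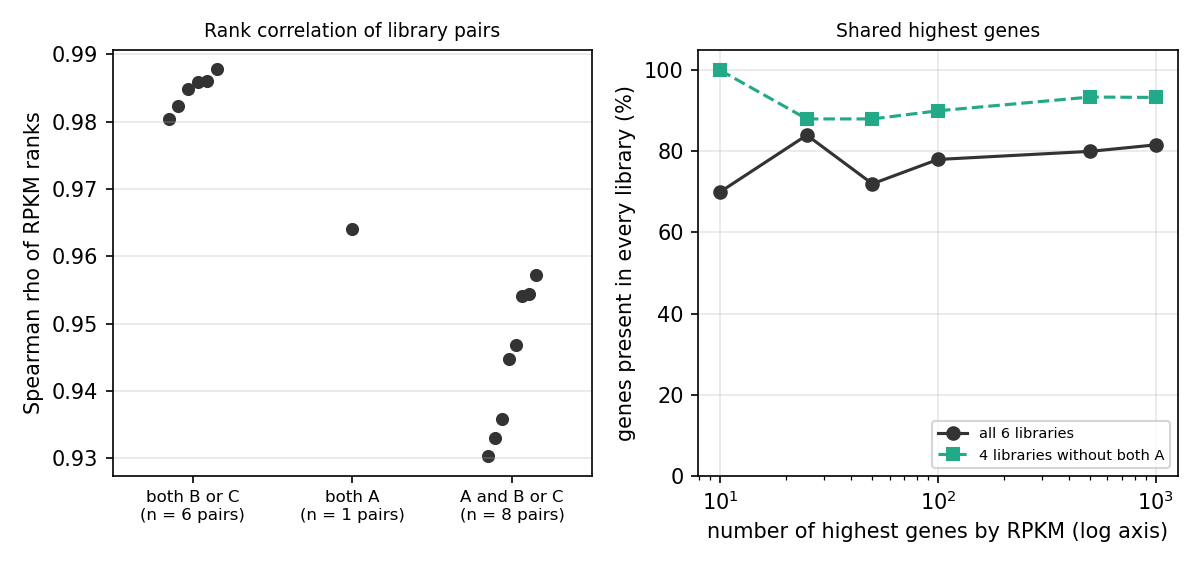
Left, Spearman rho of RPKM ranks for the 15 pairs of libraries, by kind of pair. Right, percent of the N highest genes found in every library (N on a log axis, 10 to 1000). Pairs of B and C libraries lie at 0.980 to 0.988, pairs of an A with another at 0.930 to 0.957, and sharing is 88% or more for every N in the 4 libraries without A.

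Among genes of at least 10 RPKM, the most variable named by rule are given next. The limit was set on the median of 6 libraries, so a gene low in the 2 A libraries alone could pass it and one high in them alone could not. Cox5a, a complex IV subunit, was at 12, 178, 192, 73, 173 and 168 RPKM, although Cox6a1 and Cox4i1 of the same complex were not low there, at 1077, 718, 799, 773, 756 and 795 RPKM and 451, 365, 402, 396, 375 and 406 RPKM. The potassium channel tetramerisation protein Kctd17 was at 2.59, 20.3, 26.4, 3.06, 23.1 and 24.6 RPKM, and 6-phosphogluconolactonase Pgls at 1.51, 11.6, 14.5, 2.24, 13.4 and 12.9 RPKM. Rbfa, Rhov and Mpv17l2 followed the same course, at 2.6, 11.6, 15.8, 2.01, 15.1 and 13.9 RPKM for the first. Without A, the SD of Cox5a fell from 1.56 to 0.08. Malat1, a nuclear noncoding RNA, varied in another way, at 1399, 1019, 305, 659.8, 772 and 787 RPKM, with female C the lowest, and Snhg11 was lowest in that library too, at 125, 209, 55.2, 149, 153 and 149.9 RPKM. Both were singled out after their values were seen. The steadiest genes were Decr2, Cat, Lonp2, Nap1l5 and Rab11b, with SDs of 0.018 to 0.028. Decr2, a peroxisomal reductase, stayed within 34.2 to 35.5 RPKM, and Cat, catalase, within 121 to 126 RPKM.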

How the data were processed

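Bulk RNA from 6 pools of sorted Ret-EGFP cells was reverse transcribed and amplified with a SMARTer kit for low input, per the labels' protocols. The submitters' processing notes name Subread, featureCounts 1.4.5 and GRCm38.p2 for all 6 libraries, and also STAR 2.0.4b, Salmon and mm10 for the 3 female libraries, without roles. How strand and reads with several positions were handled is not given in the sources used here. Whole counts per gene were deposited by the authors with no normalization. The CPM deposited by the authors divides each count by its column sum, and the RPKM deposited by the authors further divides by the listed length in kilobases; recomputing them gave relative differences of at most 5.1e-15 and 5.21e-14.

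Symbols, biotypes and transcripts came from GENCODE M21 (40340 of 41388 identifiers matched; the other 1048 held 0.0738 to 0.0997% of counts). Genes were ranked within each library by RPKM and CPM. Groups were not compared, and levels, ranks and lists are described with no p-value; Dixon's ratio was used only to mark single libraries for a closer look. The labels give each pool its own number of mice but do not say whether pools were prepared apart, so the spread between them may be partly technical. SDs were taken on log2(RPKM + 0.1). Ranges over 36 lists use all members that matched; Drgx and Norad did not match. Ribosomal protein genes exclude pseudogenes, kinases of the Rps6k family and Rps19bp1. Shared words are the percent of a gene's 50-base words that another annotated gene holds on either strand. Genes were named by rule: the 25 highest by RPKM and 15 by CPM, the 4 highest and the lowest of each list, the 8 most variable and 5 steadiest from 10 RPKM, and Ret, Gfra1, Gfra2, Gfra3, Mrgprd, Th, Calca, Nefh, Trpm8, Pvalb, Xist, Ddx3y and Apoe; predicted genes were named only within the 25, and other list members were named after their values were seen. Some genes that the rule would name are not reported here. The members and lists were chosen with earlier results of these data known. A floor of 3 counts and all SDs of low genes include counting error, and PCR copies of a molecule cannot be told from separate molecules. Alternatives were CPM ranks, other detection limits, protein-coding genes alone, longest transcript length, list means, TMM factors (edgeR 4.0.16 in R 4.3.3, 0.981 to 1.04), each library left out and, chosen after seeing the data, both A libraries left out. Rank and share functions were tested on simulated data. Python 3.11.15, pandas 2.3.3 and numpy 2.4.6 were used.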

Additional observations from a re-analysis of the deposited data

Results flagged for a closer look

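Of 112 values over the 6 libraries, 18 (16.1%) had 1 library farther from its neighbour than Dixon's 95% critical ratio allows, where chance flags about 1 in 20. The values are not independent, since genes belong to lists. The genes scanned were among those named above, some of them for their variability. The rate of 1 in 20 also holds for normally distributed values, whereas RPKM without logarithm and very low list medians were scanned. The share flagged is therefore no test against that rate. Female A was the library in 14 of them. It was highest for the ribosomal protein share of counts (0.667%), the median of the nuclear oxidative phosphorylation list (130 RPKM), Calca (6062 RPKM), Gal (567 RPKM), Tac1 (1155 RPKM), Rpl4 (462 RPKM), Stmn2 (2383 RPKM), Tmsb4x (4634 RPKM), Tuba1a (3919 RPKM) and the sympathetic neuron list (0.0471 RPKM). It was lowest for Dpysl2 (1478 RPKM), Nefl (768 RPKM), Prune2 (282 RPKM) and Scn11a (54.5 RPKM). Male A was highest for the C low-threshold mechanoreceptor list (17.4 RPKM) and the purinergic receptor list (1.23 RPKM) and lowest for the axon injury and regeneration list (12.96 RPKM). Female C was highest for the skeletal muscle list (0.0559 RPKM). The part of base composition, gene length or pool size in these values was not tested.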

How the results depend on the processing

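The count of genes detected in every library stayed within 1.5 times under each setting tried, as did that of genes in the top 100 of every library. The protein-coding share moved only by summed RPKM, from 95.1% of counts to a median of 90.8%. By summed RPKM, 312.5 genes in place of 554.5 (medians over libraries) held 50%. The median pairwise rank correlation of 0.957 was 0.933 among genes at 10 RPKM and 0.985 without both A libraries, and ranged from 0.954 to 0.981 when 1 library was left out. The lowest pair, 0.930, was 0.954 by CPM, 0.867 among genes at 10 RPKM and 0.980 without both A. Among neuron type lists, the first 3 places and the A-fibre list's place 7 held under every setting tried. By CPM and by list means, C low-threshold mechanoreceptors moved from 6 to 4, the Nppb list from 4 to 5 and the Mrgpra3 list from 5 to 6. By CPM and by longest transcript length, cold-sensing and proprioceptor lists exchanged places 9 and 8, to 8 and 9. Of 20 genes' median ranks, 12 moved with ranks by CPM, by more than the SD of the gene's rank over libraries. Examples were Ret (2055.5 to 903.5), Scn10a (611 to 194) and Nppb (1100 to 3898.5). With longest transcript length 4 moved, and among protein-coding nuclear genes 3. None of 140 values with libraries left out did. Leaving 1 library out cannot move a median rank by more than that SD, and leaving both A libraries out hardly can. No conclusion on stability is drawn from these 140 values. At totals of 13030096 to 23827169 counts, a gene with no counts is limited to 0.23 CPM at most. No paired analysis was possible because no groups were compared and no model was fitted to levels.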
